A study of Homo sapiens with 12 samples.

Results

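The genes described here are 60 human genes that run mitosis: the cyclins, kinases and phosphatases that start it, the spindle checkpoint and the anaphase-promoting complex that time it, the kinetochore, the spindle motors, the proteins of cytokinesis, and condensin with topoisomerase and the chromosome surface. They were chosen by name for their known roles, with earlier results of these data in view, and each one was found in the deposited expression table, which holds 65975 gene identifiers. RNA was measured in RD cells, a fusion-negative rhabdomyosarcoma (FN-RMS) line, and in Rh30 cells, a fusion-positive (FP-RMS) line. Each line had been transduced with lentivirus that carried either a non-targeting Scrambled shRNA (Scramble) or an shRNA against the histone demethylase KDM3A (KDM3A-sh2), and all 4 groups were selected with puromycin. There were 3 polyA RNA libraries in each group, 12 in all. The labels number the libraries of each group as replicates 1 to 3 and leave unsaid if each is its own culture. In the sample descriptions the last number runs from 1 to 3 within each group except Rh30 Scramble, where it is 1 in all 3 libraries, and whether these share a culture cannot be told. Across genes those 3 correlated with each other at 0.9887 to 0.9888 (Pearson), and libraries within the other groups at 0.9871 to 0.9887 (log2(FPKM + 1)). The p-values therefore measure only the spread between these libraries, which may be technical. A single KDM3A shRNA was sequenced, RD cells were grown in DMEM and Rh30 cells in RPMI, both with fetal bovine serum, and a difference between lines cannot be told apart from one between media.

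Genes of mitosis are switched on together late in the cell cycle. In resting cells the DREAM complex, built on the MuvB core, sits at short promoter elements called CHR (cell cycle genes homology region) and keeps them off, and in G2 the same MuvB core works with B-MYB (the product of MYBL2) and with FOXM1 to turn them on. CCAAT boxes, bound by NF-Y, commonly lie upstream of the CHR. The cyclin B and CDK1 kinase then starts mitosis, Polo-like and Aurora kinases build the spindle, the kinetochore holds each chromosome to it, and the spindle checkpoint delays the anaphase-promoting complex (APC/C) until every chromosome is attached. Because the RNAs of these genes are made mainly by dividing cells, their level in bulk RNA moves with the share of cells in G2 and mitosis, and in such samples fewer dividing cells and less RNA per cell cannot be told apart.

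Expression was given as FPKM, fragment numbers corrected for transcript length and for the mapped fragments of each library, so levels of different genes are compared per length. The depth in reads is not held by FPKM. Estimated from the spacing of the lowest values, the depth relative to the median library was 1.048 to 1.203 in RD Scramble, 0.863 to 0.998 in RD KDM3A-sh2, 1.002 to 1.026 in Rh30 Scramble and 0.946 to 0.996 in Rh30 KDM3A-sh2, lower with KDM3A-sh2 in both lines, and its part in the results was not tested. KDM3A (ENSG00000115548, GRCh38 chromosome 2, 86440647 to 86492716, plus strand) was measured at 35.8, 33.9 and 30.9 FPKM in the RD Scramble libraries and 12, 11.2 and 13.4 FPKM in RD KDM3A-sh2, a log2 fold change of -1.39 (adjusted p = 5e-05, standard error 0.083). In Rh30 the values were 27.8, 29.2 and 32 FPKM with Scramble and 13.7, 13.2 and 15.4 FPKM with KDM3A-sh2, a log2 fold change of -1.02 (adjusted p = 0.000348, standard error 0.079). The drop in KDM3A was larger in RD, by 0.37 on the log2 scale (adjusted p = 0.0387). Among 8 myogenic markers, MYOD1, MYOG, DES, CDH15, CHRNA1 and MYMK (listed in the files as TMEM8C) were expressed in both lines, while MYF5 and MYF6 stayed under 1 FPKM in all 12 libraries. Of 13 blood, endothelial and epithelial markers, 8 were under 1 FPKM in all 12 libraries, HBB at 0, and CD68 was the only one above 10 FPKM in a group, at 15.4 FPKM in RD Scramble and 22.7 FPKM in RD KDM3A-sh2.

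The promoter windows of these genes are shown first, for the CHR and CCAAT elements described above, which not every member held. Windows of 300 bases, from 250 before the annotated start to 50 bases from it, were taken from RefSeq (GRCh38.p14) for the 51 members that matched by symbol. The CHR was searched as TTTGAA or TTCGAA on both strands (TTCAAA is TTTGAA read on the other strand), and the CCAAT box as CCAAT on both strands. A CHR match was present in 37 of 51 members (72.5%) and in 16.6% of 27305 RefSeq promoters. Within the 100 bases around the start the shares were 56.9% of members and 5.1% of all promoters. A CCAAT box was present in 38 members (74.5%, against 35.7% of all promoters), and both motifs in 29 (56.9%, against 6.6%). E2F sites, searched as GGCGGGAA or GGCGCGAA, were found in 4 members (7.8%, against 4.1%). The stretches below lie around the CHR of members that the results return to, with the match in capitals.
KIF4A, chrX:70290058-70290087 of GRCh38.p14, plus strand: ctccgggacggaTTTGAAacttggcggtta
MAD2L1, chr4:120066807-120066836 of GRCh38.p14, minus strand: tgcgtcgttactTTTGAAacgcttggcggg
PRC1, chr15:90994538-90994567 of GRCh38.p14, minus strand: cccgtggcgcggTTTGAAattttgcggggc
CENPA, chr2:26786026-26786055 of GRCh38.p14, plus strand: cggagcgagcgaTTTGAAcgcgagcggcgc
CCNB2, chr15:59105105-59105134 of GRCh38.p14, plus strand: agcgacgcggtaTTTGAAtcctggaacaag
PLK1, chr16:23678848-23678877 of GRCh38.p14, plus strand: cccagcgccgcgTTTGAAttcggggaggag
SMC2, chr9:104094294-104094323 of GRCh38.p14, plus strand: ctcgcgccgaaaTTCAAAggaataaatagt
KIF4A and MAD2L1 had the largest drops in both lines, PRC1 was among the 4 lowest members in Rh30, CENPA among the 3 with the largest difference in effect between the lines, CCNB2 had the largest difference between the Scramble groups, PLK1 an RD change at the members' median and SMC2 the smallest change in RD. Members with and without a CHR match had median log2 fold changes of -0.83 and -0.88 in RD and of -0.11 and -0.08 in Rh30. A match is a description of the sequence and not evidence of binding.

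**Figure D1:**
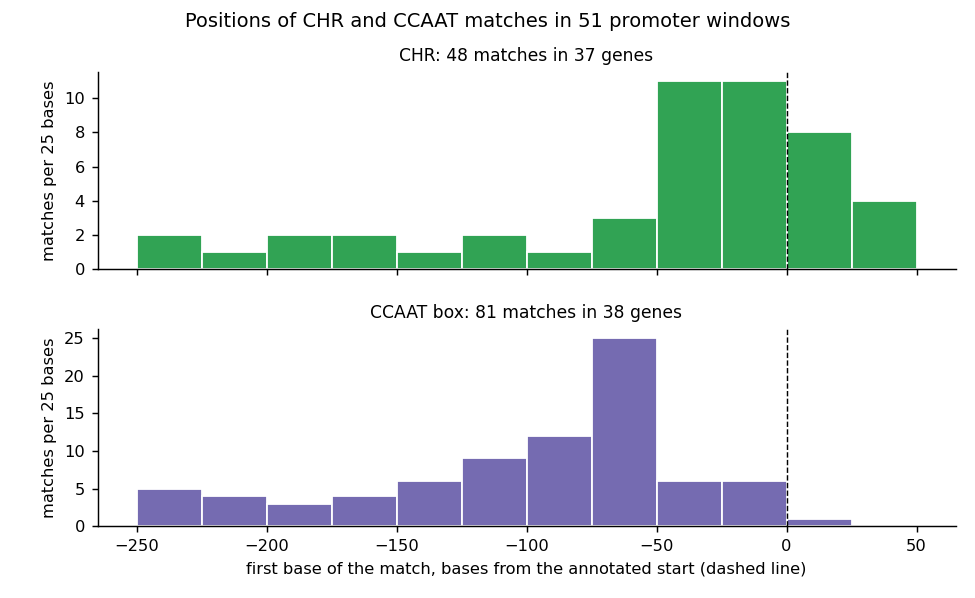
Positions of CHR (upper panel) and CCAAT (lower panel) matches in the promoter windows of 51 of the 60 genes, in bases from the annotated start, counted per 25 bases. CHR matches, found in 37 genes, crowd around the start and CCAAT matches, found in 38 genes, lie mostly upstream of it.

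In RD cells nearly the whole group was lower with KDM3A-sh2. Of the 60 genes, 57 were called lower and 0 higher (limma on log2(FPKM + 1), Benjamini-Hochberg adjusted p under 0.05), where 19.5% of 17999 genes tested were called lower and 21.6% higher. The members' median log2 fold change was -0.84, with a range from -1.59 to -0.05, and the median over all genes was 0.01. In 59 of the 60 all 3 KDM3A-sh2 libraries were under the lowest Scramble library, as in 25.3% of all genes tested. A drop of at least 1 on the log2 scale, which is a halving, was seen in 18 members. The geometric mean of the 60 genes was 64.0, 62.7 and 63.8 FPKM in the 3 RD Scramble libraries and 35.6, 35.3 and 34.9 FPKM in the 3 RD KDM3A-sh2 libraries. The smallest p that an exact permutation test can reach with 3 libraries against 3 is 0.1, and smaller values come from the spread that limma pools over genes.

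In Rh30 cells most genes of the group were not called. There 17 members were called lower and 2 higher, and 41 did not pass the threshold, where 13.2% of 17810 genes tested were called lower and 15.3% higher. The members' median log2 fold change was -0.11 (range -0.82 to 0.40) and that of all genes 0.03. Groups did not overlap in 28 members that were lower with KDM3A-sh2, against 20.2% of all genes tested, and in 6 that were higher, against 25.6%. A drop of at least 0.5 on the log2 scale was seen in 3 members, MAD2L1, KIF4A and ANLN. The geometric mean was 95.3, 94.9 and 96.4 FPKM in Rh30 Scramble and 89.3, 89.1 and 87.5 FPKM in Rh30 KDM3A-sh2, which did not overlap. The count of 17 depended on single libraries: it was 10 without Rh30 KDM3A-sh2 replicate 1 and 10 without replicate 3. All 17 members called lower in Rh30 were also among the 57 called lower in RD. Since 57 of the 60 were called lower in RD, this overlap was nearly fixed in advance. Plotted against each other over the 60 genes, RD and Rh30 log2 fold changes gave a Pearson correlation of 0.50 and a Spearman rho of 0.42, and 0.34 (Pearson) over 58 genes without MAD2L1 and KIF4A. Over all 15983 genes tested in both lines it was 0.32. These are correlations across genes, which share libraries and are not independent replicates.

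**Figure D2:**
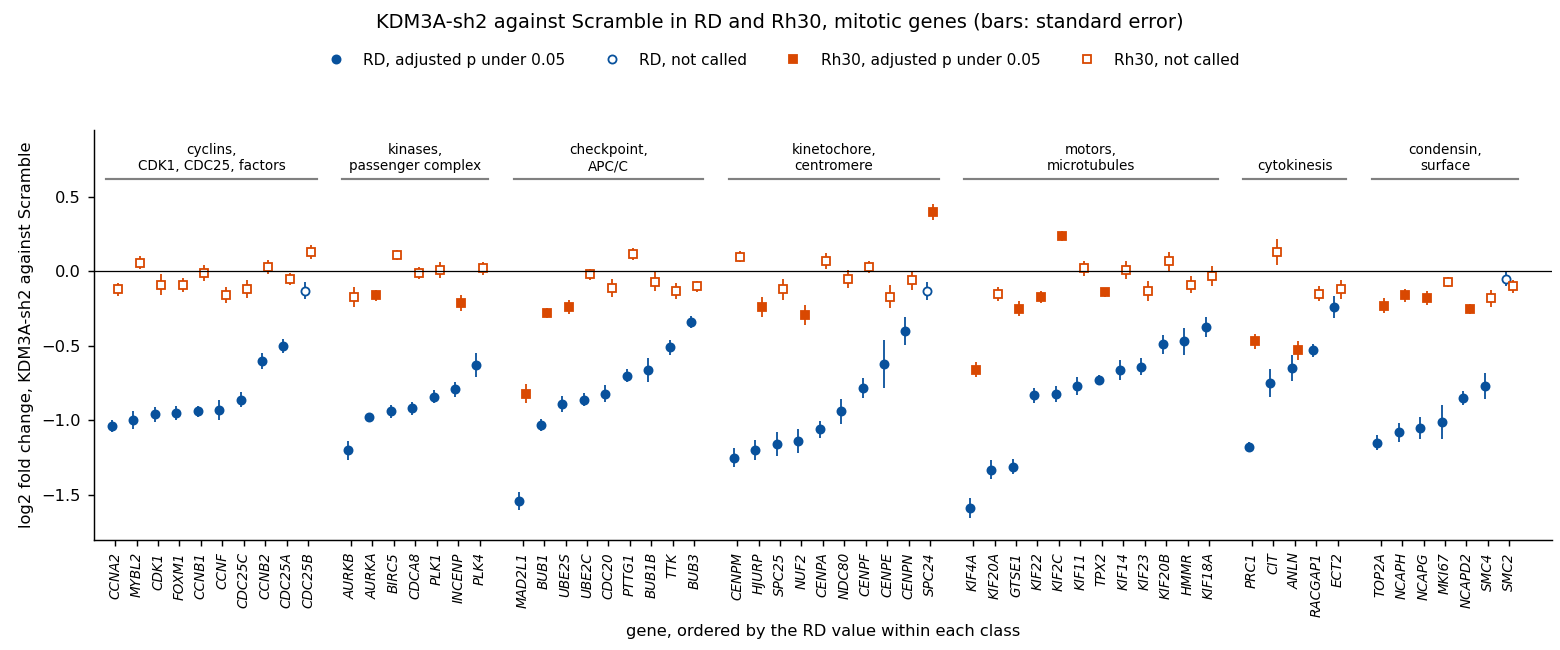
Log2 fold change of KDM3A-sh2 against Scramble for each of the 60 genes (vertical axis, bars are standard errors from limma, 3 libraries against 3), in RD (circles) and Rh30 (squares), grouped by function. RD values run from -1.59 to -0.05 and Rh30 values from -0.82 to 0.40, and filled symbols, 57 in RD and 19 in Rh30, mark an adjusted p under 0.05.

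The first class holds the cyclins, CDK1, the CDC25 phosphatases that activate it, and the transcription factors FOXM1 and MYBL2. In RD, 9 of the 10 were lower (median -0.93), and in Rh30 none of the 10 was called in either direction (median -0.07). Of all genes tested in Rh30, 13.2% were called lower and 15.3% higher. CDK1, the kinase that drives entry into mitosis, was 78.7, 73.5 and 78.8 FPKM in RD Scramble and 40.8, 37.8 and 39.1 FPKM in RD KDM3A-sh2, a log2 fold change of -0.96 (adjusted p = 2.83e-05, standard error 0.048). Its Rh30 libraries overlapped, at 149, 139 and 167 FPKM with Scramble and 145, 144 and 136 FPKM with KDM3A-sh2 (-0.09 on the log2 scale, adjusted p = 0.376). CCNB1 encodes cyclin B1, the main mitotic partner of CDK1, and had the highest level of the class. It fell from 258, 254 and 262 FPKM to 131, 140.1 and 130.4 FPKM in RD, a log2 fold change of -0.94 (adjusted p = 1.61e-05, standard error 0.039). In Rh30 it was 316, 308 and 343 FPKM with Scramble and 316, 337 and 309 FPKM with KDM3A-sh2, a difference of -0.01 that was smaller than the spread between libraries (adjusted p = 0.95). CCNA2, the cyclin of S phase and G2, had the largest RD drop of the class. It went from 58.7, 59.5 and 58.2 FPKM to 27.2, 28.4 and 28.3 FPKM, a log2 fold change of -1.04 (adjusted p = 1.24e-05, standard error 0.04). Its Rh30 groups did not overlap (172, 165 and 179.7 against 159, 163 and 153 FPKM), but the difference of -0.12 was not called (adjusted p = 0.0914). CCNF, the F-box cyclin that marks proteins for destruction in G2, went from 17.3, 16.7 and 17.3 FPKM to 8.23, 9.18 and 8.24 FPKM in RD (-0.93 on the log2 scale, adjusted p = 9.03e-05). It had the lowest Rh30 value of the class, -0.16, with 37.8, 40.7 and 36.6 FPKM in Scramble and 34.1, 33.3 and 35.5 FPKM in KDM3A-sh2 (adjusted p = 0.0745).

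CCNB2, the second B-type cyclin, fell less than CCNB1 in RD, from 29.6, 28 and 28.5 FPKM to 18.3, 17.8 and 19.5 FPKM, a log2 fold change of -0.60 (adjusted p = 0.000238, standard error 0.054). In Rh30 it stood at 134, 128 and 142 FPKM with Scramble and 139, 141 and 133 FPKM with KDM3A-sh2, with overlap (log2 fold change 0.03, adjusted p = 0.645). The 3 CDC25 phosphatases differed among themselves in RD. CDC25C, which acts at the entry into mitosis, fell (log2 fold change -0.86, adjusted p = 4.93e-05), and so did CDC25A, which also acts at the start of S phase (-0.50, adjusted p = 0.00029). CDC25B, which starts CDK1 activation at the centrosome, was not called, with 39.3, 45.4 and 41.4 FPKM in Scramble and 38.3, 38.2 and 38 FPKM in KDM3A-sh2 (-0.13 on the log2 scale, adjusted p = 0.111). Without RD Scramble replicate 1 its value was -0.18 and was called. In Rh30 CDC25B was 77.2, 79.7 and 73.1 FPKM with Scramble and 86.1, 81.2 and 84 FPKM with KDM3A-sh2, higher without overlap and not called (log2 fold change 0.13, adjusted p = 0.0816).

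The activators of the program were themselves among the genes that fell in RD. FOXM1 went from 124, 124 and 126 FPKM to 61.2, 67.9 and 63.1 FPKM, a log2 fold change of -0.95 (adjusted p = 2.46e-05, standard error 0.046). MYBL2, which encodes B-MYB, went from 51.1, 54.2 and 56.4 FPKM to 26.2, 28.2 and 24.9 FPKM, a log2 fold change of -1.0 (adjusted p = 5.44e-05, standard error 0.061). In Rh30, FOXM1 was 202, 209 and 199.6 FPKM with Scramble and 197, 179.7 and 196 FPKM with KDM3A-sh2, lower in each library and not called (-0.09, adjusted p = 0.168). MYBL2 was 238, 239 and 217 FPKM and 236, 247 and 241 FPKM in the same groups, with overlap (0.06, adjusted p = 0.368).

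**Figure D3:**
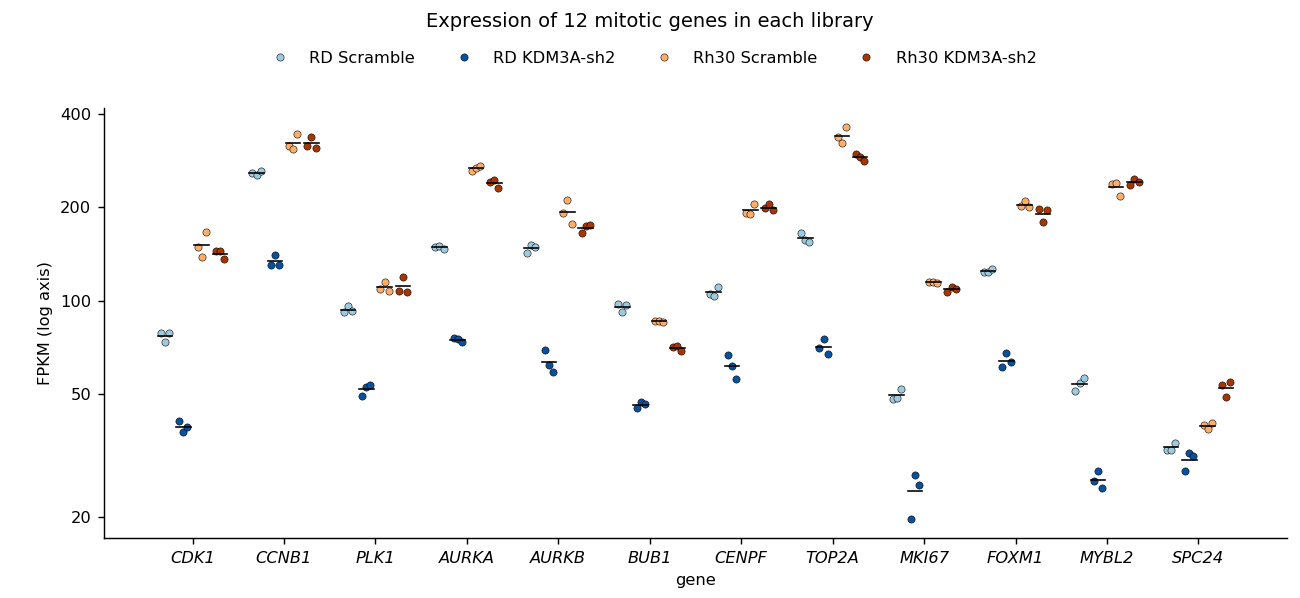
FPKM of 12 genes (log axis) in each of the 12 libraries, as points, with the mean of each group of 3 as a short line. For CDK1, CCNB1, PLK1, AURKA, AURKB, BUB1, CENPF, TOP2A, MKI67, FOXM1 and MYBL2 the RD KDM3A-sh2 libraries lie well below the other 3 groups, while SPC24, the kinetochore gene at the right, is highest in Rh30 KDM3A-sh2.

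All 7 mitotic kinases and members of the chromosomal passenger complex were lower in RD (median -0.92). In Rh30 2 of them, AURKA and INCENP, were lower (median -0.01), against 13.2% of all genes tested. PLK1, the Polo-like kinase of centrosomes, kinetochores and the midbody, was 91.9, 96.2 and 92.2 FPKM in RD Scramble and 49.2, 52.7 and 53.6 FPKM in RD KDM3A-sh2, a log2 fold change of -0.84 (adjusted p = 3.66e-05, standard error 0.045). In Rh30 the groups overlapped at 109, 115 and 108 and 107, 119 and 107 FPKM (0.01, adjusted p = 0.948), and this value changed sign under other scalings. AURKA, the Aurora kinase of the spindle poles, fell from 149, 149.8 and 147 FPKM to 75.9, 75.2 and 73.3 FPKM in RD, a log2 fold change of -0.98 (adjusted p = 1.24e-05, standard error 0.032). It fell slightly in Rh30, from 262, 268 and 271 FPKM to 240.1, 245 and 231 FPKM, a log2 fold change of -0.16 (adjusted p = 0.016, standard error 0.035). That call was lost without Rh30 KDM3A-sh2 replicate 1 (-0.17), and also when replicate number was a block in the limma fit (adjusted p = 0.0557).

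AURKB, the Aurora kinase of the centromere, had the largest RD drop of the class, from 142, 151 and 149 FPKM to 69.4, 62.1 and 59 FPKM, a log2 fold change of -1.20 (adjusted p = 3.25e-05, standard error 0.063). The Rh30 libraries gave 192, 212 and 177 FPKM with Scramble and 165, 173 and 175 FPKM with KDM3A-sh2, lower without overlap and not called (-0.17, adjusted p = 0.0963), and without Rh30 Scramble replicate 3 its value was -0.24 and was called. INCENP, the scaffold that activates AURKB, went from 46.3, 47.5 and 44.8 FPKM to 25.5, 27.7 and 26 FPKM in RD, a log2 fold change of -0.79 (adjusted p = 6.54e-05, standard error 0.05). In Rh30 it went from 97.6, 93.2 and 85.9 FPKM to 79.2, 78.4 and 80.8 FPKM, a log2 fold change of -0.21 (adjusted p = 0.0266, standard error 0.053), and this call was lost when any of 5 of the 6 Rh30 libraries was left out (-0.22 to -0.17). The other subunits of the complex, BIRC5 (survivin) and CDCA8 (borealin), fell in RD (log2 fold changes -0.94 and -0.92) and were not called in Rh30 (0.11, adjusted p = 0.0502, and -0.01, adjusted p = 0.919). PLK4, the kinase of centriole duplication, fell least of the class in RD (-0.63) and was 0.02 in Rh30 (adjusted p = 0.751).

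All 9 genes of the spindle checkpoint and the APC/C were lower in RD (median -0.82). In Rh30 3 were lower (median -0.11), against 13.2% of all genes tested. MAD2L1 encodes MAD2, which binds CDC20 and holds the APC/C back, and it had the second largest RD drop of the 60 genes and the largest in Rh30. In RD it went from 115, 104 and 112 FPKM to 40.2, 36.7 and 35.5 FPKM, a log2 fold change of -1.54 (adjusted p = 1.48e-05, standard error 0.061). In Rh30 it went from 266, 245 and 281 FPKM to 149.5, 157 and 140.2 FPKM, a log2 fold change of -0.82 (adjusted p = 0.000348, standard error 0.064). BUB1, a checkpoint kinase at the kinetochore, fell from 97.6, 91.5 and 96.5 FPKM to 45, 47.1 and 46.5 FPKM in RD, a log2 fold change of -1.03 (adjusted p = 1.55e-05, standard error 0.041). In Rh30 it fell from 86.2, 86.1 and 85.2 FPKM to 70.9, 71.6 and 68.9 FPKM, a log2 fold change of -0.28 (adjusted p = 0.00197, standard error 0.035), and kept its call with each single library left out. The checkpoint kinase TTK and the BUBR1 gene BUB1B fell in RD (log2 fold changes -0.51 and -0.66) and were not called in Rh30 (-0.13, adjusted p = 0.0971, and -0.07, adjusted p = 0.477). BUB3, the partner of BUB1 and BUBR1, had the smallest RD drop of the class, from 212, 204 and 214 FPKM to 165, 158 and 173 FPKM (-0.34, adjusted p = 0.000956). Rh30 values were 145, 149 and 153 FPKM with Scramble and 141, 137 and 137 FPKM with KDM3A-sh2, lower without overlap and not called (-0.10, adjusted p = 0.0694).

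UBE2C, the ubiquitin-conjugating enzyme that works with the APC/C, had the highest level of all 60 genes. In RD it went from 278, 298 and 303 FPKM to 163, 162 and 157 FPKM, a log2 fold change of -0.86 (adjusted p = 2.46e-05, standard error 0.041). Rh30 libraries held 511, 514 and 503 FPKM with Scramble and 509, 515 and 479 FPKM with KDM3A-sh2, with overlap (-0.02, adjusted p = 0.644). UBE2S, which extends the ubiquitin chains, fell in both lines (RD log2 fold change -0.89, adjusted p = 4.97e-05, and Rh30 -0.24, adjusted p = 0.00982). CDC20, the activator of the APC/C, fell in RD (log2 fold change -0.82, adjusted p = 0.000104) and was -0.11 in Rh30 (adjusted p = 0.198). PTTG1 encodes securin, which the APC/C destroys to free separase, and it fell in RD (log2 fold change -0.70, adjusted p = 6.49e-05) and was 0.12 in Rh30, with every KDM3A-sh2 library above every Scramble library and no call (adjusted p = 0.074).

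The kinetochore and centromere class had the lowest RD median but one (-1.0), with 9 of 10 members lower. In Rh30 its median was -0.05, with 2 members lower and 1 higher, against 13.2% and 15.3% of all genes tested. CENPM, a subunit of the inner kinetochore, had the largest RD drop of the class, from 32.6, 34.1 and 34.8 FPKM to 14.6, 12.8 and 13.7 FPKM, a log2 fold change of -1.25 (adjusted p = 2.78e-05, standard error 0.062). In Rh30 every KDM3A-sh2 library was above every Scramble library, 60.6, 58.4 and 58.4 against 54.4, 55.5 and 54.8 FPKM, with no call (0.10, adjusted p = 0.0773). CENPA, the histone H3 variant that marks the centromere, went from 41.5, 38.5 and 39.1 FPKM to 17.4, 19.4 and 18.6 FPKM in RD, a log2 fold change of -1.06 (adjusted p = 3.64e-05, standard error 0.058). In Rh30 it was 70.6, 69.1 and 75.1 FPKM with Scramble and 77.2, 77.8 and 70.0 FPKM with KDM3A-sh2, with overlap (0.07, adjusted p = 0.429). Its chaperone HJURP fell in both lines (RD log2 fold change -1.20, adjusted p = 3.95e-05, and Rh30 -0.24, adjusted p = 0.0338). CENPF, a large protein of the outer kinetochore, had the highest level of the class and went from 105, 104 and 110.3 FPKM to 66.7, 61.6 and 55.9 FPKM in RD, a log2 fold change of -0.78 (adjusted p = 0.000197, standard error 0.067). Its Rh30 libraries stood at 191, 189.7 and 205 and 198, 204 and 195 FPKM, with overlap (0.03, adjusted p = 0.663). The kinesin CENPE and the nucleosome reader CENPN fell in RD, with log2 fold changes of -0.62 (adjusted p = 0.021) and -0.40 (adjusted p = 0.0155), and were -0.17 (adjusted p = 0.135) and -0.06 (adjusted p = 0.543) in Rh30.

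The 4 subunits of the NDC80 complex, which grips the spindle microtubules as a single rod, did not change alike. NUF2 went from 47.7, 44.2 and 43.9 FPKM to 22.1, 20.4 and 17.8 FPKM in RD, a log2 fold change of -1.14 (adjusted p = 0.000102, standard error 0.082), and from 49, 45.8 and 51.1 FPKM to 42.5, 39.6 and 36.7 FPKM in Rh30, where the log2 fold change was -0.29 (adjusted p = 0.0211, standard error 0.068). The Rh30 call was lost when any of 4 of the 6 libraries was left out (-0.29 to -0.24). SPC25 and NDC80 fell in RD (log2 fold changes -1.16 and -0.94) and were -0.12 (adjusted p = 0.245) and -0.05 (adjusted p = 0.577) in Rh30. SPC24, which forms a dimer with SPC25, stood apart from them in both lines. In RD it was 33, 33.1 and 34.7 FPKM with Scramble and 28.1, 32.3 and 31.6 FPKM with KDM3A-sh2, lower without overlap but not called (-0.13, adjusted p = 0.142). In Rh30 it rose from 39.8, 38.5 and 40.2 FPKM to 53.5, 49 and 54.4 FPKM, a log2 fold change of 0.40 (adjusted p = 0.0026, standard error 0.052), the highest value of the 60 genes.

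All 12 spindle motors and microtubule factors were lower in RD (median -0.75). In Rh30 4 of them, KIF22, KIF4A, TPX2 and GTSE1, were lower and KIF2C was higher (median -0.11). The shares of all genes tested were 13.2% and 15.3%. KIF4A, a kinesin of chromosome arms and the central spindle, had the largest RD drop of the 60 genes and the lowest level of any member in any group. In RD it went from 23, 21.6 and 23.4 FPKM to 7.27, 7.02 and 6.40 FPKM, a log2 fold change of -1.59 (adjusted p = 1.85e-05, standard error 0.068). In Rh30 it went from 42.2, 44.6 and 45.3 FPKM to 27.2, 28.8 and 26.6 FPKM, a log2 fold change of -0.66 (adjusted p = 0.000348, standard error 0.051). KIF20A, the kinesin that carries the passenger complex to the central spindle, went from 60.6, 60.0 and 63.4 FPKM to 23.9, 25.6 and 21.9 FPKM in RD, a log2 fold change of -1.33 (adjusted p = 2.29e-05, standard error 0.063). Rh30 libraries were at 81.5, 88 and 90.1 FPKM with Scramble and 79.7, 76.2 and 77.2 FPKM with KDM3A-sh2, lower without overlap and just short of the threshold (-0.15, adjusted p = 0.0548), and called without Rh30 Scramble replicate 1 (-0.20). KIF2C encodes MCAK, which takes microtubules apart at the kinetochore, and its groups moved apart in opposite directions in the 2 lines. It fell from 67, 65.7 and 67.5 FPKM to 39.4, 37.9 and 34.7 FPKM in RD, a log2 fold change of -0.82 (adjusted p = 7.15e-05, standard error 0.054). It rose from 75.9, 75.1 and 76.7 FPKM to 90.7, 90.2 and 87.8 FPKM in Rh30, a log2 fold change of 0.24 (adjusted p = 0.00367, standard error 0.034).

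TPX2, the spindle factor that activates AURKA, had the highest level of this class and fell from 135, 131 and 136 FPKM to 82.7, 79.9 and 79.9 FPKM in RD, a log2 fold change of -0.73 (adjusted p = 2.29e-05, standard error 0.034). In Rh30 it fell from 162, 164 and 165 FPKM to 150.2, 149 and 145 FPKM, a log2 fold change of -0.14 (adjusted p = 0.019, standard error 0.032), and this call was lost without any of the 3 KDM3A-sh2 libraries (-0.15, -0.15 and -0.13 without replicates 1, 2 and 3). GTSE1, a microtubule plus-end protein of G2 and mitosis, fell in both lines (RD log2 fold change -1.31, adjusted p = 1.24e-05, and Rh30 -0.25, adjusted p = 0.0124), and so did the chromokinesin KIF22 (-0.83 and -0.17, adjusted p = 5.16e-05 and 0.0211). KIF14, a kinesin of the midbody, went from 22.2, 19.5 and 19.5 FPKM to 12.5, 12.5 and 12.7 FPKM in RD (-0.66, adjusted p = 0.000391) and was 11.2, 10.7 and 11.7 and 11.7, 11.4 and 10.8 FPKM in Rh30, with overlap (0.01, adjusted p = 0.923, and with a change of sign under other scalings). KIF11, the motor that pushes the spindle poles apart, fell in RD (log2 fold change -0.77), and so did KIF23, the motor subunit of centralspindlin (-0.64), with Rh30 values of 0.02 (adjusted p = 0.782) and -0.13 (adjusted p = 0.203). The smallest RD drops of the class were those of KIF18A, which dampens chromosome movements at the metaphase plate (-0.37, adjusted p = 0.00487), HMMR (-0.47) and KIF20B (-0.49), and none of these 3 was called in Rh30 (-0.03, -0.09 and 0.07).

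All 5 cytokinesis genes were lower in RD (median -0.65). PRC1 and ANLN were lower in Rh30 (median -0.15), where 13.2% of all genes tested were. PRC1, which bundles the microtubules of the central spindle, was the highest of the class. It went from 187, 186 and 189 FPKM to 82.2, 80.6 and 83.8 FPKM in RD, a log2 fold change of -1.18 (adjusted p = 9.67e-06, standard error 0.032). In Rh30 it went from 271, 279 and 250.2 FPKM to 189, 186 and 202 FPKM, a log2 fold change of -0.47 (adjusted p = 0.00147, standard error 0.053). ANLN, which encodes anillin, the scaffold of the cleavage ring, went from 137, 135 and 116 FPKM to 75.7, 90.8 and 80.1 FPKM in RD, a log2 fold change of -0.65 (adjusted p = 0.00138, standard error 0.088). Its Rh30 drop was close to that, from 167, 179 and 150.2 FPKM to 112, 116 and 113 FPKM, a log2 fold change of -0.53 (adjusted p = 0.00184, standard error 0.064). ECT2, the exchange factor that switches on RhoA at the cleavage site, had the smallest called drop of the 60 genes in RD. It was 49.9, 43.6 and 45.2 FPKM with Scramble and 40.7, 35.5 and 40.8 FPKM with KDM3A-sh2 (-0.24, adjusted p = 0.0395), and the call was lost when any of 5 of the 6 RD libraries was left out (-0.27 to -0.18). Its Rh30 values were 29.4, 25.4 and 27.3 and 24.8, 24.4 and 26.1 FPKM, with overlap (-0.12, adjusted p = 0.22). RACGAP1, the partner of KIF23 in centralspindlin, fell in RD (log2 fold change -0.53), and so did CIT, the citron kinase gene (-0.75), with Rh30 values of -0.15 (adjusted p = 0.065) and 0.13 (adjusted p = 0.33).

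Condensin, topoisomerase II alpha and the chromosome surface gave the lowest RD median of the classes (-1.01), with 6 of 7 members lower. In Rh30 4 of the 7 were called lower (median -0.18), where 13.2% of all genes tested were. In all 7 every KDM3A-sh2 library was below every Scramble library, as in 20.2% of all genes tested. TOP2A, which untangles sister chromatids, was the highest and went from 165, 157 and 155 FPKM to 70.2, 75.1 and 67.2 FPKM in RD, a log2 fold change of -1.15 (adjusted p = 1.86e-05, standard error 0.05). In Rh30 it went from 337, 322 and 362 FPKM to 296, 290.1 and 281 FPKM, a log2 fold change of -0.23 (adjusted p = 0.0149, standard error 0.049), and this call was lost by an analysis of variance on unlogged FPKM (adjusted p = 0.063). NCAPD2, a condensin I subunit, had the lowest Rh30 value of the class. It fell from 238, 237 and 229 FPKM to 198, 193 and 202 FPKM in Rh30, a log2 fold change of -0.25 (adjusted p = 0.00298, standard error 0.034), and from 115, 113 and 117 FPKM to 64.7, 59.6 and 65.7 FPKM in RD, a log2 fold change of -0.85 (adjusted p = 3.62e-05, standard error 0.046). The other condensin I subunits NCAPG and NCAPH fell in both lines, with log2 fold changes of -1.05 and -1.08 in RD and -0.18 and -0.16 in Rh30 (adjusted p = 0.0306 and 0.039). MKI67 encodes Ki-67, which coats mitotic chromosomes and is the usual marker of proliferation. It went from 48, 48.5 and 51.7 FPKM to 19.8, 27.4 and 25.5 FPKM in RD, a log2 fold change of -1.01 (adjusted p = 0.000601, standard error 0.11). In Rh30 it was 115, 114 and 114 FPKM with Scramble and 107, 111 and 109 FPKM with KDM3A-sh2, lower without overlap and not called (-0.07, adjusted p = 0.151).

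The ATPase pair of condensin, SMC2 and SMC4, differed in RD. SMC4 fell (log2 fold change -0.77, adjusted p = 0.000583) and was -0.18 in Rh30 (adjusted p = 0.0561). SMC2 was 50.3, 47.4 and 45.9 FPKM with Scramble and 45.3, 45.4 and 48.2 FPKM with KDM3A-sh2 in RD, the only member of the 60 whose RD groups overlapped (-0.05, adjusted p = 0.503). The Rh30 values were 50.9, 49.2 and 51 FPKM and 45.8, 49 and 46.4 FPKM, lower without overlap and not called (-0.10, adjusted p = 0.144).

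Whether the KDM3A-sh2 effect differed between the lines was tested as the interaction of line and shRNA over all 12 libraries, where a positive value means a larger drop in RD. In 55 of the 60 genes the value was positive and called, and in 0 it was negative and called, where 14.4% of 18532 genes tested were called in the positive and 13.5% in the negative direction. The members' median was 0.76 on the log2 scale and that of all genes 0.02. On the TPM scale, where all libraries sum to one total, 40.6% of all calls were positive in place of 51.7%, and among the members 52 were positive and 0 negative. The largest differences were those of CENPM (1.35 (adjusted p = 5.61e-07, standard error 0.068)), KIF20A (1.18 (adjusted p = 3.33e-06, standard error 0.08)) and CENPA (1.13 (adjusted p = 4.49e-06, standard error 0.08)). The 5 genes without a call were SMC2 (-0.05, adjusted p = 0.598), ANLN (0.12, adjusted p = 0.507), ECT2 (0.12, adjusted p = 0.41), CENPN (0.34, adjusted p = 0.0658) and CENPE (0.45, adjusted p = 0.116). The 2 genes that fell most in Rh30 fell more in RD, MAD2L1 by 0.72 (adjusted p = 0.000256) and KIF4A by 0.93 (adjusted p = 1.59e-05), on the log2 scale. In mean FPKM rather than log2, MAD2L1 fell more in Rh30 (from 264.1 to 148.9) than in RD (from 110.6 to 37.45). The drop of KIF4A in FPKM was about the same in the 2 lines. Its interaction was not called by an analysis of variance on unlogged FPKM (adjusted p = 0.726). The value of CDC25B (0.26, adjusted p = 0.023) lost its call without Rh30 Scramble replicate 3 (0.23) and without Rh30 KDM3A-sh2 replicate 1 (0.24). KDM3A itself also fell more in RD than in Rh30, and the part of that difference in these values was not tested.

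The level from which the genes started was higher in Rh30. Between the Scramble groups of the 2 lines, 51 of the 60 genes were higher in Rh30 and 5 lower, where 35.0% of 18366 genes tested were called higher and 39.6% lower. The members' median difference was 0.62 on the log2 scale, and that of all genes -0.04. On the TPM scale the median of all genes moved to -0.14 and that of the members to 0.51, with 41 called higher and 7 lower. The 60 genes held 0.583 to 0.597% of the summed FPKM in Rh30 Scramble and 0.404 to 0.416% in RD Scramble. The 3 largest differences were those of CCNB2 (135 against 28.7 FPKM, log2 difference 2.19, adjusted p = 6.84e-08), MYBL2 (231 against 53.9 FPKM, 2.08, adjusted p = 1.21e-07) and CCNA2 (172 against 58.8 FPKM, 1.53, adjusted p = 1.42e-07). The genes that were lower in Rh30 were KIF14 (11.2 against 20.4 FPKM, -0.81, adjusted p = 4.53e-05), ECT2 (27.3 against 46.3 FPKM, -0.74, adjusted p = 8.29e-05), BUB3 (149 against 210.1 FPKM, -0.50, adjusted p = 1.72e-05), KIF18A (-0.38, adjusted p = 0.0037) and BUB1 (-0.15, adjusted p = 0.0115). CDC20, CDCA8, NUF2 and SMC2 were not called (-0.07, -0.10, 0.10 and 0.07). All 10 genes of the cyclin class were higher in Rh30. In 48 of the 60 genes the mean of Rh30 KDM3A-sh2 was above that of RD Scramble. The same share over all genes was not computed, so this count is a description only.

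**Figure D4:**
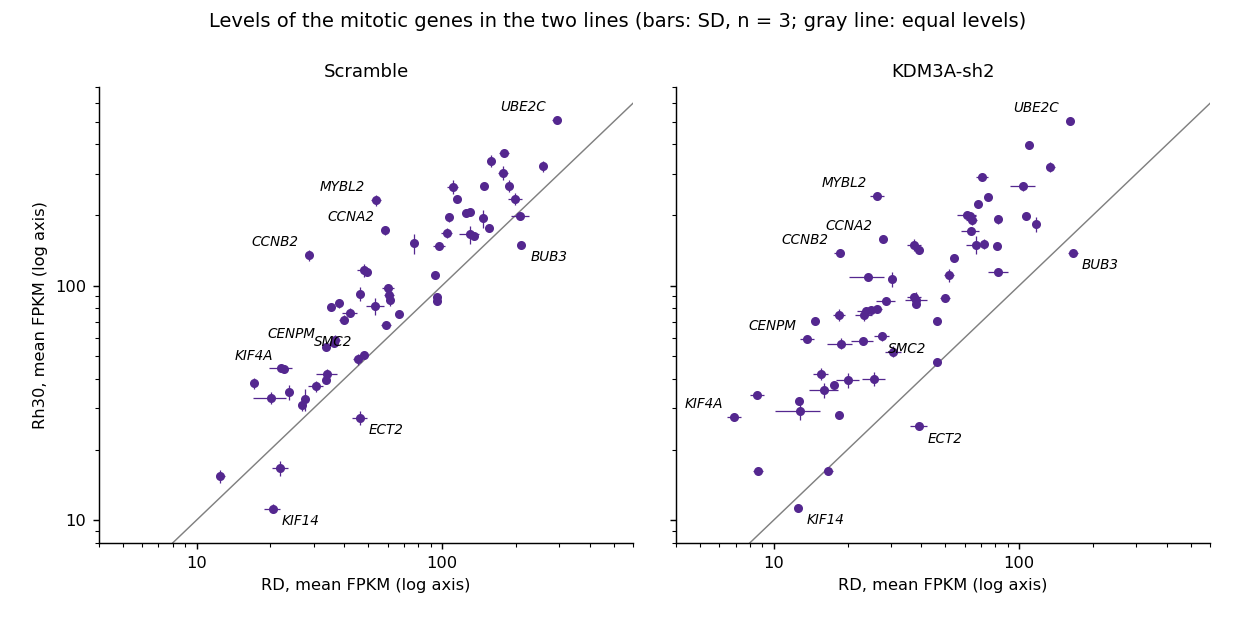
Mean FPKM of the 60 genes in Rh30 (vertical, log axis) against RD (horizontal, log axis), with Scramble on the left and KDM3A-sh2 on the right, where bars are the SD of 3 libraries and the gray line marks equal levels. Most genes lie above the line with Scramble, 51 of them called higher in Rh30, and move further from it with KDM3A-sh2 as the RD levels fall, while KIF14, ECT2 and BUB3 lie below it.

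Other genes of mitosis were also mostly lower in RD, where 19.5% of all genes tested were called lower and 21.6% higher. In Rh30 those shares were 13.2% and 15.3%. Of 41 further mitotic genes, 38 were lower in RD and 0 higher (median -0.86), and 17 were lower and 2 higher in Rh30 (median -0.09). The lowest in both lines was MASTL, the Greatwall kinase that holds back the phosphatase opposing CDK1, with an RD value of -1.50 (adjusted p = 1.24e-05) and an Rh30 value of -0.85 (adjusted p = 0.000708). The highest were MAD1L1 in RD (-0.08, adjusted p = 0.593) and KIF18B in Rh30 (0.28, adjusted p = 0.0107). A further 26 kinetochore subunits moved less. In RD 20 of them were lower and 0 higher (median -0.39), from MIS18A (-1.05, adjusted p = 0.000134), which licenses new CENPA, to ZWILCH (0.10, adjusted p = 0.249). In Rh30 6 were lower and 2 higher (median -0.04), against 13.2% and 15.3% of all genes tested. Values there ran from MIS18A (-0.83, adjusted p = 0.000401) to CENPH (0.42, adjusted p = 0.00243).

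The core of the APC/C, which is present throughout the cell cycle, had medians near 0. Of 15 genes, FZR1 among them, 5 were lower and 2 higher in RD (median -0.03), where 19.5% and 21.6% of all genes tested were. In Rh30 1 was lower and 2 higher (median 0.07), against 13.2% and 15.3% of all genes tested. FZR1, the activator of G1, had the lowest value in RD (-0.22, adjusted p = 0.0391) and CDC23 the highest (0.24, adjusted p = 0.00531). In Rh30 ANAPC1 was lowest (-0.34, adjusted p = 0.0832) and ANAPC15 highest (0.29, adjusted p = 0.0193). Of 12 cohesin subunits and regulators, 9 were lower and 0 higher in RD (median -0.22), and ESCO2, the acetyltransferase of S phase, was lowest (-0.91, adjusted p = 0.00047). In Rh30 4 were lower and 1 higher (median -0.10), against 13.2% and 15.3% of all genes tested. SMC1A was lowest there (-0.35, adjusted p = 0.00101), and NIPBL, the cohesin loader, was the member that rose (0.17, adjusted p = 0.0337).

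Among 22 genes of DREAM, MuvB, the E2F family and NF-Y, 9 were lower and 3 higher in RD (median -0.12), where 19.5% and 21.6% of all genes tested were. In Rh30 4 were lower and 4 higher (median 0.08), against 13.2% and 15.3% of all genes tested. E2F2 was the lowest in RD (-0.97, adjusted p = 0.000201), and RBL2, the pocket protein p130 of the DREAM complex, the highest (0.33, adjusted p = 0.00538). In Rh30 MYBL1 was the lowest (-0.77, adjusted p = 0.00433) and E2F6 the highest (0.30, adjusted p = 0.00756). Genes of DNA replication, which are transcribed earlier in the cycle, fell in RD together with the mitotic genes. Of 34, 32 were lower and 1 higher (median -0.57), from RRM2, a subunit of ribonucleotide reductase (-1.48, adjusted p = 1.18e-05), to GINS3 (0.49, adjusted p = 0.000825). In Rh30 5 were lower and 4 higher (median 0.00), against 13.2% and 15.3% of all genes tested. Values there ran from RRM1 (-0.43, adjusted p = 0.000708) to GINS3 (0.59, adjusted p = 0.000661). The ratio of the geometric mean of the 60 mitotic genes to that of the replication genes was 1.17 to 1.19 in RD Scramble and 1.02 to 1.04 in RD KDM3A-sh2, and 1.11 to 1.14 in Rh30 Scramble and 1.04 to 1.06 in Rh30 KDM3A-sh2, so it was lower with KDM3A-sh2 in every library of both lines.

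**Figure D5:**
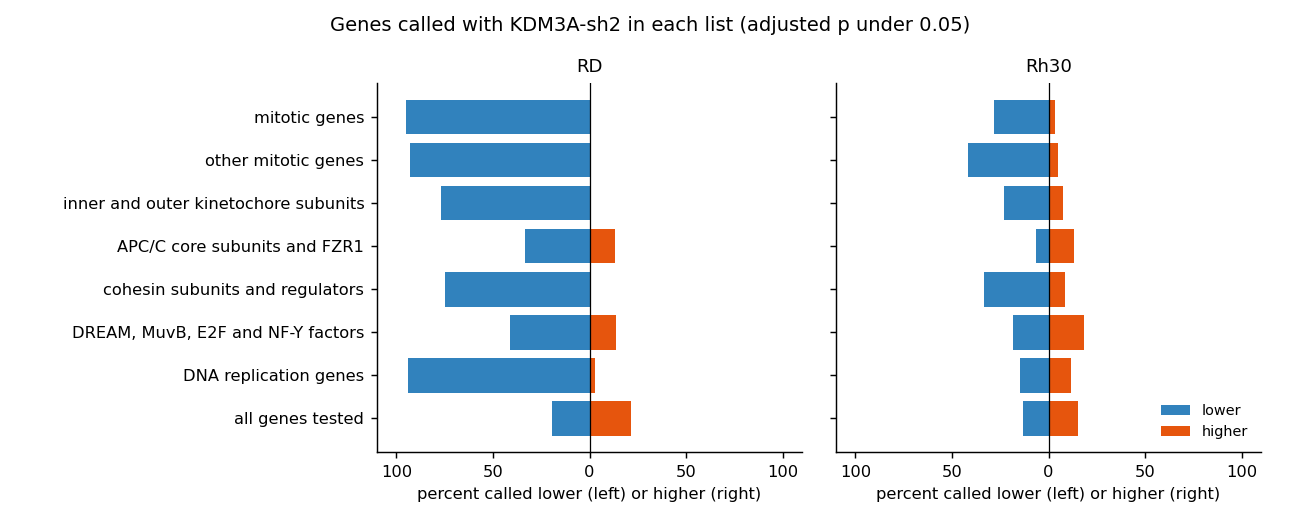
Percent of each gene list called lower (bars to the left) or higher (to the right) with KDM3A-sh2 at an adjusted p under 0.05, in RD and Rh30, with all genes tested at the bottom (19.5% lower and 21.6% higher in RD, 13.2% and 15.3% in Rh30). In RD the 60 genes (top bars), the other mitotic genes and the DNA replication genes reach furthest to the left, and the APC/C core and the DREAM, MuvB, E2F and NF-Y genes least of the lists drawn.

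CDK inhibitors, which brake the cycle, did not move as a group. CDKN1A, the p21 gene, was 40.5 FPKM in RD Scramble and 48.7 FPKM in RD KDM3A-sh2, a rise of 0.26 on the log2 scale (adjusted p = 0.00239), and fell from 99.5 to 67.6 FPKM in Rh30 (-0.55, adjusted p = 0.000346). CDKN2B, the p15 gene, rose from 25.9 to 49.7 FPKM in RD (0.92, adjusted p = 8.44e-05), while CDKN1C (-0.72, adjusted p = 0.00073) and CDKN2C (-0.52, adjusted p = 0.000188) fell there. In Rh30 CDKN2D was the 1 member of the list that rose (0.24, adjusted p = 0.0191). Of the 7 genes, 2 were lower and 2 higher in RD, where 19.5% and 21.6% of all genes tested were. In Rh30 1 was lower and 1 higher of 6 tested, against 13.2% and 15.3% of all genes tested. Some myogenic markers moved with KDM3A-sh2 as well, and the part of muscle differentiation in the mitotic values was not tested. In RD 3 of 6 tested were lower and 2 higher, from CDH15 (-0.60) to CHRNA1 (0.42), and in Rh30 2 were lower and 2 higher, from CHRNA1 (-0.64) to MYOG (0.56), and the summed FPKM of the 8 markers was 2150 to 2370 in RD Scramble, 2650 to 2770 in RD KDM3A-sh2, 2460 to 2730 in Rh30 Scramble and 2830 to 2870 in Rh30 KDM3A-sh2.

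Several members have near-identical copies elsewhere in the genome, and the values of such genes are uncertain where reads could be shared between the copies. The copies found in the table were KIF4B, PTTG2, PTTG3P, AURKAPS1, BUB3P1, UBE2SP1, UBE2SP2 and CDC20P1. In RD 7 of these 8 were lower and 0 higher, against 19.5% and 21.6% of all genes tested. In Rh30 3 were lower, against 13.2%. KIF4B, an intronless copy of KIF4A, was listed at 5.45 FPKM in RD Scramble and 1.78 FPKM in RD KDM3A-sh2 (-1.22, adjusted p = 0.000206), and at 10.8 and 6.33 FPKM in Rh30 (-0.69, adjusted p = 0.000864). UBE2SP2 reached 140.2 FPKM in RD Scramble, against 198 FPKM for UBE2S itself. How the authors' counting split such reads was not found in the sources used here.

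Of the members that fell in Rh30, 7 shared a 7-base word in their 3′ UTR. The word TGAAGCA was looked for with earlier results of these libraries in view, so its presence here is a description and not independent support. It was present in the longest GENCODE 29 3′ UTR of 9 of the 60 members (15%) and in 16.9% of 11268 genes tested in both lines. Among genes with a 3′ UTR within 1.25 times the length of a member's, the share averaged 9.2% over the members. The members' 3′ UTRs were shorter than those of all genes, with a median length of 799.5 bases against 1407.5. Among the 17 members called lower in Rh30, 7 held the word, and among the other 43, 2 held it, FOXM1 and BUB3. The first site in each of these 7 members is shown with the word in capitals, in the order of the classes. MAD2L1 and PRC1 hold 2 sites each.
AURKA, chr20:56370262-56370290 of GRCh38, minus strand: ttcaagactgtTGAAGCAtaatcccagcc
INCENP, chr11:62152715-62152743 of GRCh38, plus strand: ctatgtgctggTGAAGCAtgaggtctgag
MAD2L1, chr4:120059542-120059570 of GRCh38, minus strand: acttgaacctaTGAAGCAatggatatttg
KIF4A, chrX:70420759-70420787 of GRCh38, plus strand: tgccatgttgtTGAAGCAaatgaattatt
GTSE1, chr22:46330791-46330810 of GRCh38, plus strand: aatggacttatTGAAGCAta
PRC1, chr15:90966825-90966853 of GRCh38, minus strand: attctacttgcTGAAGCAtgatcaaagct
ANLN, chr7:36452925-36452953 of GRCh38, plus strand: gctgtaggtctTGAAGCAgcaacgtcttt
The list holds the 4 members with the lowest Rh30 values, MAD2L1 (-0.82), KIF4A (-0.66), ANLN (-0.53) and PRC1 (-0.47). MAD2L1 has a long 3′ UTR (4510 bases), and 39.3% of genes of like length held the word. That share was 5.7% for KIF4A, 10.1% for ANLN and 9.6% for PRC1. The median log2 fold change in Rh30 was -0.25 in the 9 members with the word and -0.09 in the 51 without, and in RD it was -0.98 and -0.83. Both sets of members had negative medians in each line. What part the word has in the values of either line was not tested.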

How the data were processed

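RNA from 3 libraries of each group was sequenced, aligned and quantified by the authors. Per the labels, directional mRNA libraries were sequenced from 1 end, and the submitters' processing notes name GSNAP, SAMtools, Cufflinks and GRCh38. The deposited values are FPKM, which the authors computed per gene with Cufflinks, scaled to transcript length and mapped fragments and without a log. They hold no counts, so tests that need counts were not used. The annotation release and strand setting were not given in the sources used here. The paper's Methods and the labels differ on read length.

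The table held 66095 entries for 65975 gene identifiers. For 117 identifiers with several entries the one with the highest mean was used, and values used as placeholders (17 genes, none of them a member) were treated as missing. SPC25 was listed under a further identifier at 0 in all libraries. Summed FPKM per library was 1198300 to 1379197. FPKM show no read depth, so no counting interval was given.

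Tests used limma 3.58.1 in R 4.3.3 (lmFit, eBayes with a trend) on log2(FPKM + 1). Genes had to average at least 1 FPKM over the libraries fitted. Tests were two-sided, with Benjamini-Hochberg adjustment over all genes tested and a threshold of 0.05. A log2 fold change on this scale understates the change of low genes. Each line was fitted alone, the Scramble groups of the 2 lines were compared, and the interaction of line and shRNA was fitted over 12 libraries. The study's own test, an analysis of variance on unlogged FPKM, was an alternative, as were a pseudocount of 0.1, no filter, a filter of 10 FPKM, the TPM scale, centring on the median, a replicate block, 1 fit over the 12 libraries, and leaving out each library. The scripts were tested on simulated data with known changes. Tables and figures used Python 3.11.15, pandas 2.3.3, NumPy 2.4.6 and matplotlib 3.10.9.

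All 60 members passed the filter in each of the 4 comparisons. Values per library were given for 33 of them by a rule: per class the highest level and the lowest log2 fold change in each line, every member not lower in RD or higher in Rh30, the 3 largest and 3 smallest interactions, the 3 genes most above and the 3 most below RD in Rh30 Scramble, and 11 genes chosen for their roles. Other members were given by their log2 fold change, and lists by counts, medians and extremes. The members, the lists and the 3′ UTR word were chosen with earlier results of these data known. Promoter windows came from RefSeq (GRCh38.p14), which matched 51 members, and 3′ UTRs from GENCODE 29.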

Additional observations from a re-analysis of the deposited data

Results flagged for a closer look

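The KDM3A-sh2 effect differed between the lines, by the interaction test over the 12 libraries, in 55 of the 60 genes, in each with the higher log2 value in Rh30. Among the genes with values given per library, the difference (Rh30 minus RD, log2) was 0.93 in CCNA2, 0.94 in CCNB1, 0.64 in CCNB2, 0.77 in CCNF, 0.86 in CDK1, 0.26 in CDC25B, 0.86 in FOXM1 and 1.06 in MYBL2. In the kinases and the passenger complex it was 0.84 in PLK1, 0.82 in AURKA, 1.03 in AURKB and 0.58 in INCENP. In the checkpoint and APC/C class it was 0.75 in BUB1, 0.24 in BUB3, 0.72 in MAD2L1 and 0.84 in UBE2C. At the kinetochore it was 1.13 in CENPA, 0.81 in CENPF, 1.35 in CENPM, 0.85 in NUF2 and 0.52 in SPC24. In the motors and microtubule factors it was 0.67 in KIF14, 1.18 in KIF20A, 1.06 in KIF2C, 0.93 in KIF4A and 0.58 in TPX2. It was 0.71 in the cytokinesis gene PRC1, and 0.60, 0.92 and 0.94 in NCAPD2, TOP2A and MKI67. KIF2C was the one gene of these that was called in both lines with opposite signs. With 3 libraries per group, single libraries were not tested for standing apart.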

How the results depend on the processing

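The counts and medians of the members kept their direction on the log2 scale in all alternatives. Of these values, 89 of 90 from other settings and 88 of 90 from leaving out a library stayed within 1.5 times the count or within the spread of the libraries. The number called lower in RD was 54 to 57 in the other settings and 55 to 57 with a library left out. In Rh30 it was 12 to 22 in other settings (12 without a filter, with the replicate block and by analysis of variance on unlogged FPKM, 21 on the TPM scale and 22 median-centred, against 17), and 10 to 16 with a library left out. The positive interactions numbered 47 (analysis of variance on unlogged FPKM) to 55 in other settings and 52 to 56 with a library left out. In that analysis of variance the p-value came from unlogged FPKM and the sign from the log2 group means. MAD2L1, which in FPKM fell more in Rh30, therefore had a positive sign there. The median difference between the Scramble groups moved to 0.51 on the TPM scale. Libraries with the same replicate number did not deviate together (correlations of their deviations from the group means -0.074 to -0.009), so the numbers were not taken to pair the samples, and with the replicate block the counts were 57 lower in RD, 12 lower in Rh30 and 54 positive interactions. Values near 0 changed sign. In Rh30 PLK1 was -0.0195 on the TPM scale and -0.0202 median-centred, and KIF14 -0.0138 and -0.0163. Between the Scramble groups NUF2 was -0.00826 and SMC2 -0.0357 on the TPM scale. With a library left out, Rh30 values of CCNB1 ran from -0.0423 to 0.0408, of CCNB2 from -0.00224 to 0.0711, of PLK1 from -0.0455 to 0.0351, of UBE2C from -0.0451 to 0.00697 and of KIF14 from -0.0193 to 0.0368, and none of these was called. Among single genes in other settings, 21 values lost and 12 gained a call. By analysis of variance on unlogged FPKM the interactions of CCNB2, INCENP, KIF4A and TOP2A lost it, as did the RD drop of ECT2 and the Rh30 drops of INCENP (adjusted p = 0.0799), HJURP (0.101), NUF2 (0.0671), NCAPG (0.0708), NCAPH (0.0581) and TOP2A (0.063). Without a filter INCENP, HJURP, NUF2, NCAPG and NCAPH lost the Rh30 call (0.0505 to 0.0829), and in 1 fit over the 12 libraries NCAPG and NCAPH (0.0541 and 0.0535). With the replicate block AURKA, INCENP, NUF2, TPX2, NCAPG and NCAPH lost it (0.0549 to 0.0957). The cause was not tested. FPKM without read numbers and 3 libraries per group limit what could be called.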
